A study of Mus musculus with 6 samples.

Results

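The 38 genes described here are the enzymes, transporters and regulators of glycolysis together with well-known genes of the response to low oxygen, chosen by symbol from 52325 genes in the table of counts, of which 20684 had enough counts to be tested. All 38 were among the genes tested. They fall into glucose uptake and trapping (4 genes), upper glycolysis (9), lower glycolysis (6), pyruvate and lactate handling (4), the hypoxia-inducible factors and their prolyl hydroxylases (4), intracellular targets of those factors (7), secreted targets (2) and carbonic anhydrases (2).

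RNA was sequenced from cells of breast tumours that arose in C57BL/6 mice carrying C3-T, the tumour background, and Elf5-GFP, a reporter in which green fluorescent protein marks cells that express the mammary transcription factor Elf5. Every library shares that background and reporter, and no tumour without them and no normal mammary tissue was analysed here. Antibodies to CD45, CD31 and TER119 were used on the digested tumours to enrich for tumour cells, and GFP then divided these into Elf5-positive cells (Elf5+, 2 libraries) and Elf5-negative cells (Elf5-, 4 libraries). The sample titles also carry 1 of 2 numbers, called A and B here, and a code, T1 or T2, and give no meaning for either. Number A is on Elf5-positive library 1 and Elf5-negative libraries 1 and 2, and number B on Elf5-positive library 2 and Elf5-negative libraries 3 and 4. Elf5-negative libraries 1 and 3 carry T1 and the other 4 libraries T2, so T1 was sampled from Elf5-negative cells alone. The labels give no age and do not tie a library to an animal or a tumour, so the p-values reflect variation among these 6 libraries alone, part of which may be technical.

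Glycolysis splits glucose into pyruvate in the cytosol, and many tumour cells turn much of that pyruvate into lactate and export it. When oxygen is low, the prolyl hydroxylases of the Egln family no longer mark the HIF alpha subunits (Hif1a and Epas1) for destruction, and the stabilised factors switch on glucose transporters, most glycolytic enzymes, angiogenic signals such as Vegfa and the pH regulator Car9. HIF alpha is set mainly at the protein level, so its mRNA is not a measure of its activity.

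HIF binds the core letters ACGTG or GCGTG, and the promoters of 5 genes on which the results below turn are printed here with those letters, on either strand, in capitals (CACGT and CACGC are the reverse complements). Hk2 and Adm are the 2 printed genes that differed between the sorts, and Car9, Pgk1 and Slc16a3 were among the genes that differed most between the T2 libraries of different title number. Each is a RefSeq window (GRCm38.p6) of 250 bases before and 50 after the gene's start, 5′ to 3′ on the gene's own strand. They lie at chr6:82774405-82774704 on the minus strand (Hk2), and on the plus strand at chr7:110627407-110627706 (Adm), chr4:43506776-43507075 (Car9), chrX:106186850-106187149 (Pgk1) and chr11:120948817-120949116 (Slc16a3).
Hk2: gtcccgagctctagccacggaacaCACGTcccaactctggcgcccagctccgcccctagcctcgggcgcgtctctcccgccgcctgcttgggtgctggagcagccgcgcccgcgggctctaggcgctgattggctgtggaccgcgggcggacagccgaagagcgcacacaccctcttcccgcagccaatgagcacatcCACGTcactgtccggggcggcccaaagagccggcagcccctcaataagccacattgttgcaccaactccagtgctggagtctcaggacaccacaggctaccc
Adm: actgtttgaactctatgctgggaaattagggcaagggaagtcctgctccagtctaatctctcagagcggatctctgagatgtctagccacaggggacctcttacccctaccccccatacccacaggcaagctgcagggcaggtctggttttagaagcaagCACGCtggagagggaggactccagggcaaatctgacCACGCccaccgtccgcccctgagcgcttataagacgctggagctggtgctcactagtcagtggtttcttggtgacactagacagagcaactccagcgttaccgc
Car9: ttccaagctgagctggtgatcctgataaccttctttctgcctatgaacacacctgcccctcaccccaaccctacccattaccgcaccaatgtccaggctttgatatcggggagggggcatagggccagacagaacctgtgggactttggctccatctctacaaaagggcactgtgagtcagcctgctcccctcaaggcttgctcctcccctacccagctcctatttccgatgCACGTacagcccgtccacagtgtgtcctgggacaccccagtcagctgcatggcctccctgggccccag
Pgk1: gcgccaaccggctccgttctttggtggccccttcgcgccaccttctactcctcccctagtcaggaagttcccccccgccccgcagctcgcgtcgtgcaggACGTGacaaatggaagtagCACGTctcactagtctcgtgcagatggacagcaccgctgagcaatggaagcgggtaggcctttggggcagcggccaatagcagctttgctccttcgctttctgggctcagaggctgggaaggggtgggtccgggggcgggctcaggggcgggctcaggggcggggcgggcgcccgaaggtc
Slc16a3: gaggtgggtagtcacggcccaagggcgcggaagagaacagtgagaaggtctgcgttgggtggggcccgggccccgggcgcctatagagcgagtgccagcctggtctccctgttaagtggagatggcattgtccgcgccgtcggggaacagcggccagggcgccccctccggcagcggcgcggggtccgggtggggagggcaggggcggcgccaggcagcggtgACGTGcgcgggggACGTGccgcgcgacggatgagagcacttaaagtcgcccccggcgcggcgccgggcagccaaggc
The Hk2, Pgk1 and Slc16a3 windows hold ACGTG 2 times each, the Car9 window holds it 1 time, and the Adm window holds GCGTG 2 times. Eno1, Pfkfb4, Vegfa, Pfkm and Slc2a1, which also differed between those T2 libraries, are not printed. Their windows nearest the annotated start hold ACGTG 0, 0, 0, 3 and 1 times and GCGTG 2, 1, 0, 0 and 1 times. The RefSeq windows matched 34 of the 38 genes (Slc2a3, Epas1, Bnip3l and Ndrg1 had no match). In the first window of each gene, ACGTG or GCGTG was present in 25 of 34 members (73.5%) and in 43.8% of the windows of 27025 genes. ACGTG was present in 52.9% of member windows against 19.7% of all, and GCGTG in 17 of 34 member windows against 32.5%. The palindrome CACGTG, which contains ACGTG on both strands, was present in 14.7% against 7.24%. These windows were not matched on base composition, and a match is a description of letters, not of binding.

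Elf5-negative library 4 was the shallowest with 9106660 counts, and the other 5 libraries held 32602477 to 53694884. The 38 genes took 0.819 to 1.51% of all counts in a library, most in Elf5-negative library 2 and least in Elf5-negative library 1. Levels are given as CPM (counts per 1000000 counts of the library) after scaling by trimmed mean of M values (TMM), and values of libraries are in the order 1 to 2 (Elf5-positive) and 1 to 4 (Elf5-negative). The sorts differed in cell makeup. The sum of 14 fibroblast markers was 1663 to 1679 CPM in the Elf5-positive and 17400 to 50587 CPM in the Elf5-negative libraries (none at 0 in any library), led by Col3a1 at 223 to 260.5 against 5289 to 19805 CPM. The sum of 18 epithelial markers was 5992 to 8178 against 2065 to 3564 CPM (none at 0), with Epcam at 1372 to 1483 against 382 to 703 CPM. Summed pericyte and smooth muscle markers were 108 to 109 against 479 to 1289 CPM, leukocyte markers 77.7 to 128 against 86.0 to 243 CPM, and skeletal muscle markers 9.48 to 13.9 against 6.29 to 281 CPM. In bulk RNA, fewer cells of a type and less RNA per cell cannot be told apart.

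The first comparison asks which of these genes differ between Elf5-positive and Elf5-negative cells. Slc2a3, Hk2 and Adm fell in Elf5-positive cells, by 2.85, 1.22 and 1.46 on the log2 scale, and no member rose (adjusted p below 0.05 over all genes tested in edgeR's quasi-likelihood test). That is 3 of 38 lower (7.89%), beside 3.79% of all tested genes called lower and 0.585% called higher. At an unadjusted p below 0.05, edgeR had 3 members higher and 7 lower, beside 5.20% and 11.7% of all tested genes. DESeq2 with adjustment called 2 higher (Aldoc, Egln3) and 5 lower (Slc2a3, Hk2, Pfkfb4, Hif1a, Adm), beside 2.11% and 8.54% of all genes. The median log2 fold change of the 38 was 0.08, beside 0.05 over all tested genes, with 20 members above 0 and 18 below. Both Elf5-positive libraries lay above all Elf5-negative libraries for 7 members (18.4%, beside 10.9% of all tested genes) and below them for 8 (21.1%, beside 14.8%). With libraries scaled to the 18 epithelial genes instead, the median of all genes moved from 0.05 to -1.36 and that of the members to -1.38, and all 38 members then lay below 0, so that the 20 positive directions given here turn under that scaling.

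**Figure D1:**
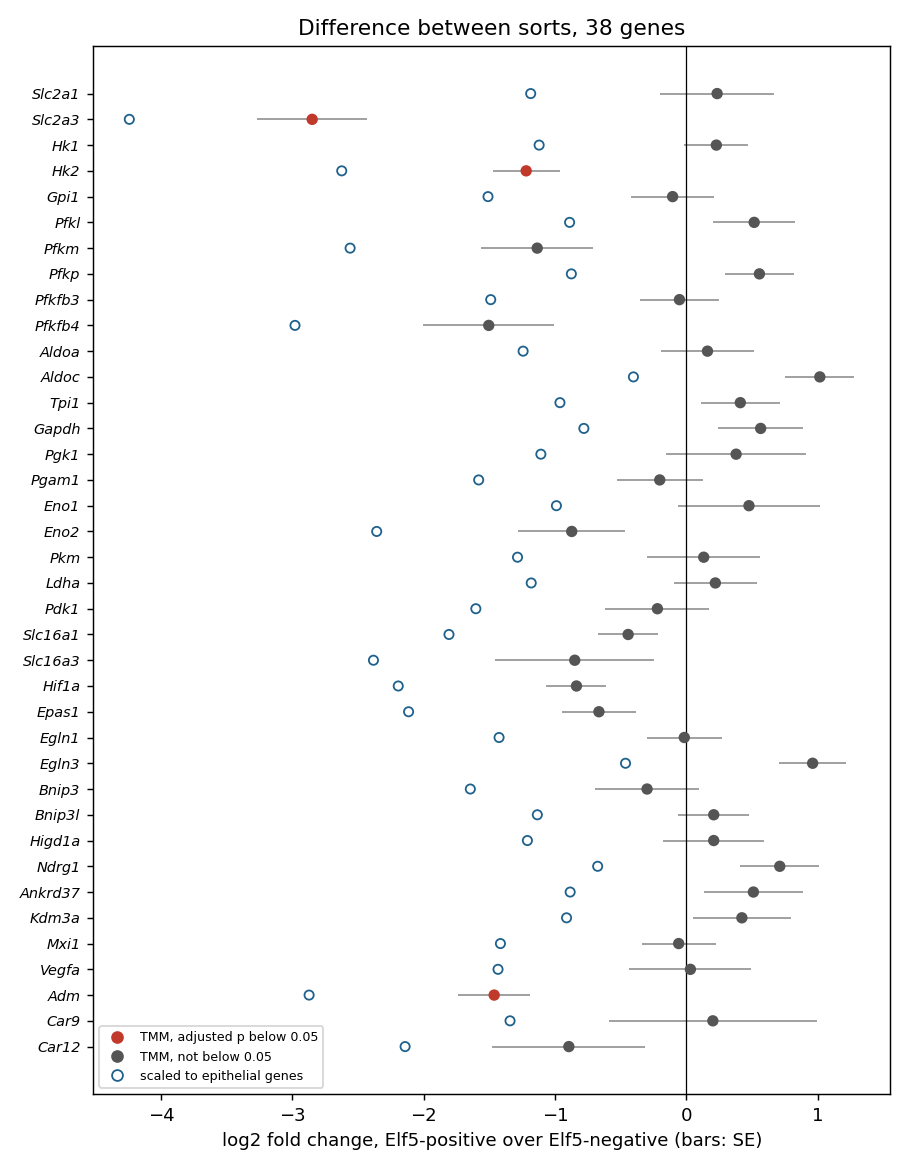
Log2 fold change of each of the 38 genes, Elf5-positive over Elf5-negative, with TMM scaling (filled points, bars are SE, 2 against 4 libraries) and with scaling to epithelial genes (open points). Slc2a3, Hk2 and Adm (red) passed the test and lay below 0 under both scalings, while the 20 genes above 0 with TMM scaling lay below 0 with epithelial scaling. Epithelial scaling moved the median of all genes from 0.05 to -1.36, so staying below 0 is no check on these 3 genes.

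Glucose enters through Slc2a1 (GLUT1), the transporter of most cells, and Slc2a3 (GLUT3), a high-affinity form, and is trapped by the hexokinases Hk1 and Hk2, the latter being the form known as inducible in muscle, fat and tumours. Slc2a3 (ENSMUSG00000003153.10, chr6:122727809-122801640, minus strand, GRCm38) was at 1.80 and 2.94 CPM in the Elf5-positive and at 17.4, 19.4, 11.4 and 20.5 CPM in the Elf5-negative libraries. The groups were far apart, with the highest Elf5-positive value well under the lowest Elf5-negative one. Its log2 fold change was -2.85 (SE 0.42, edgeR adjusted p = 0.0137). Slc2a1 was at 403 and 237 CPM against 167, 463, 243 and 215 CPM, with a log2 fold change of 0.23 (SE 0.43, edgeR adjusted p = 0.853). The groups overlapped for Slc2a1, and the library of each group with title number A and code T2 was the highest of its group. Per kilobase of exon, Slc2a1 far exceeded Slc2a3 in every library and made up 99.0 to 99.6% of the pair in Elf5-positive and 92.1 to 96.7% in Elf5-negative cells, so the gene that fell was the minor transporter.

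Hk2 (ENSMUSG00000000628.10, chr6:82725025-82774454, minus strand) was at 29.5 and 38.9 CPM in the Elf5-positive and at 88.3, 91.0, 62.9 and 76.3 CPM in the Elf5-negative libraries. The groups did not overlap, and the log2 fold change was -1.22 (SE 0.25, edgeR adjusted p = 0.0402). Hk1, the housekeeping hexokinase, was at 95.2 and 141 CPM against 88.4, 119.6, 100.02 and 94.6 CPM, where the groups overlapped (log2 fold change 0.23, SE 0.24, edgeR adjusted p = 0.726). Per kilobase of exon, Hk2 made up 19.3 to 21.1% of the 2 hexokinases in Elf5-positive and 35.2 to 46.3% in Elf5-negative cells. The log2 ratio of Hk2 to Hk1 counts, which does not depend on how libraries are scaled, was -1.77 ± 0.12 (SD, n = 2) against -0.34 ± 0.27 (SD, n = 4), a difference of -1.43.

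Adm (ENSMUSG00000030790.15, chr7:110627661-110629820, plus strand) encodes adrenomedullin, a secreted vasodilator peptide and HIF target. It was at 27.6 and 33.2 CPM in the Elf5-positive and at 106, 84.5, 81.3 and 62.7 CPM in the Elf5-negative libraries. All 4 Elf5-negative values lay above both Elf5-positive ones, and the log2 fold change was -1.46 (SE 0.27, edgeR adjusted p = 0.0274). The other secreted target, Vegfa, the main angiogenic growth factor, did not separate the sorts. It was at 679.7 and 362 CPM against 395, 901, 349 and 393 CPM (log2 fold change 0.03, SE 0.46, edgeR adjusted p = 0.984), with the A T2 library highest in each sort.

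These 3 calls rest on few libraries. Leaving out a library kept Slc2a3 called in 5 of 6 cases (edgeR adjusted p 0.0238 to 0.0463) and lost it without Elf5-negative library 1 (0.0505). Adm passed without Elf5-negative library 4 (0.0239) and failed when any of the other 5 was left out (0.0586 to 0.104), and Hk2 failed whichever library was left out (0.0592 to 0.155). The log2 fold changes without a library ranged from -3.24 to -2.54 for Slc2a3, -1.60 to -1.32 for Adm and -1.43 to -1.03 for Hk2. All 3 genes were higher in the sort whose summed fibroblast, pericyte and endothelial markers were higher. The 12 endothelial markers summed to 27.6 to 55.7 against 81.1 to 182 CPM (none at 0). By edgeR 3 of the 12 fell and 0 rose, beside 3.79% of all tested genes called lower. Both Elf5-positive libraries lay below all Elf5-negative ones for 4 of the 12, beside 14.8% of all tested genes. The other endothelial markers overlapped between the sorts. The 8 adipocyte markers summed to 8.83 to 23.5 against 120.5 to 382 CPM, without overlap. Lpl alone made up most of that sum in each Elf5-negative library (304 of 382, 93.3 of 136, 235 of 275 and 105 of 120.5 CPM). Of the 5 that were tested, Lpl (4.49 to 5.20 against 93.3 to 304 CPM, log2 fold change -5.25) and Pparg (-3.81) fell. Fabp4 (-2.00), Plin1 (0.22) and Cfd (0.83) overlapped between the sorts and were not called. Plin1 and Cfd reached at most 0.33 and 0.94 CPM in any library. Lep was at 0 in 4 libraries (both Elf5-positive and Elf5-negative 2 and 4), Adipoq in Elf5-negative library 1 and Cidec in Elf5-negative library 4. Within the Elf5-negative libraries fibroblast markers were highest in library 3, where Slc2a3 and Hk2 were lowest. Adm, at 106, 84.5, 81.3 and 62.7 CPM, was highest in library 1 and lowest in library 4. So were the endothelial sum (182, 136, 131 and 81.1 CPM) and the pericyte and smooth muscle sum (1289, 963, 1134 and 479 CPM). The leukocyte sum (243, 137, 100.2 and 86.0 CPM) and the adipocyte sum (382, 136, 275 and 120.5 CPM) had the same highest and lowest libraries. The fibroblast, epithelial, skeletal muscle and erythroid sums did not share both. The part of cell makeup in these 3 results was not tested.

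**Figure D2:**
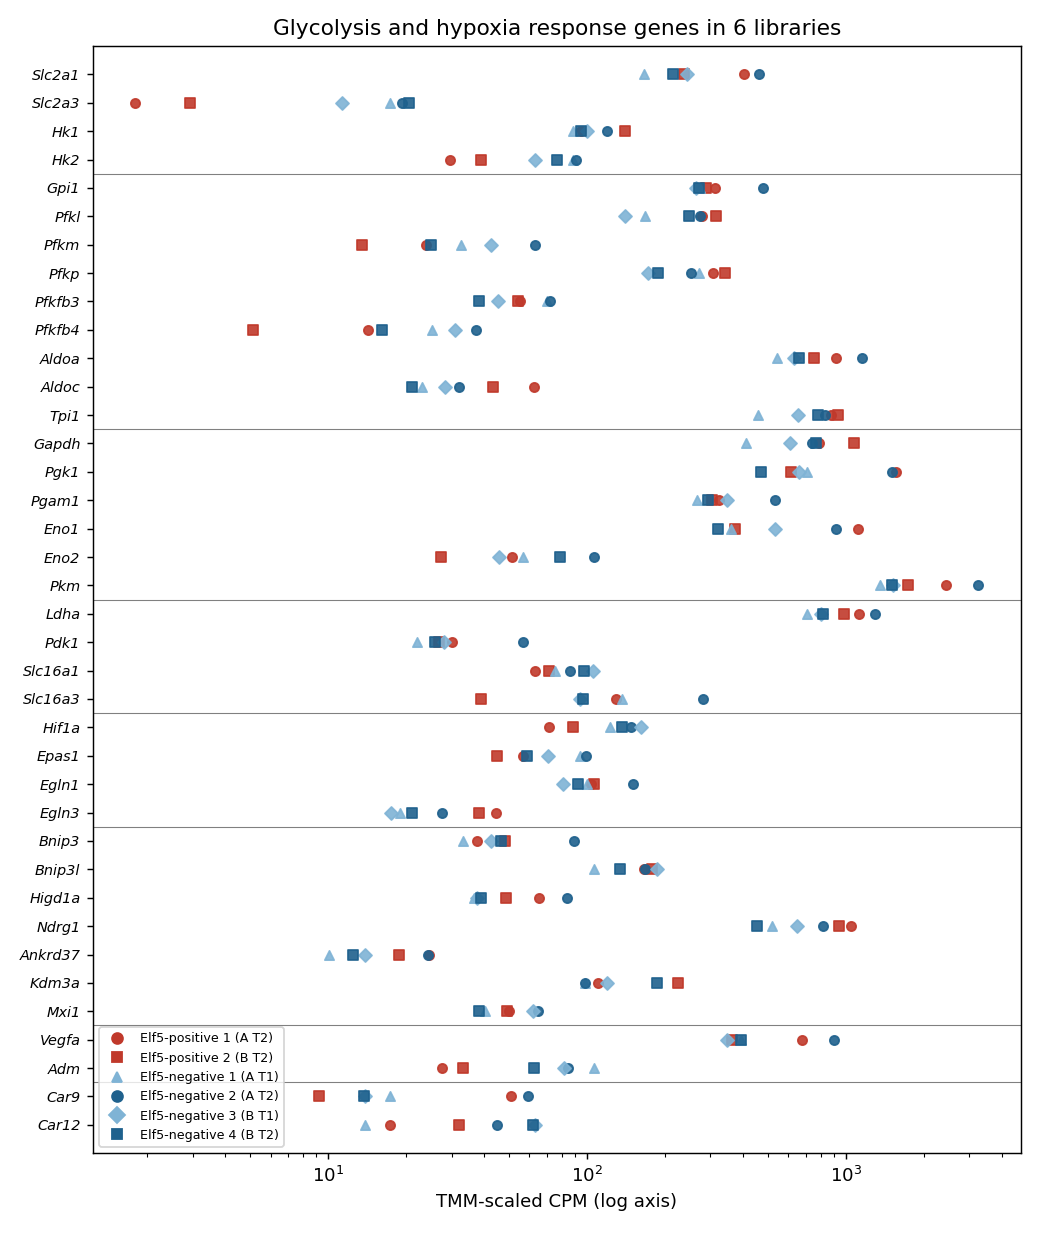
TMM-scaled CPM (log axis) of the 38 genes in each library, grouped from top to bottom as uptake, upper glycolysis, lower glycolysis, pyruvate and lactate, HIF and hydroxylases, intracellular targets, secreted targets and carbonic anhydrases. Red points are the 2 Elf5-positive and blue points the 4 Elf5-negative libraries, and Elf5-negative library 2 (dark blue circle) is the highest blue point for 29 of the 38 genes.

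Upper glycolysis runs from glucose 6-phosphate to the triose phosphates. Of its 9 genes 0 passed edgeR's test in either direction, while 3 had an unadjusted p below 0.05 (1 higher, 2 lower) and DESeq2 called 1 higher and 1 lower, with fold changes between -1.50 and 1.02 on the log2 scale. Aldoc, the aldolase typical of brain, had the highest fold change of the 38 genes. It was at 62.5 and 43.2 CPM against 23.0, 32.0, 28.2 and 21.1 CPM. Both Elf5-positive values lay above the Elf5-negative ones, and the log2 fold change of 1.02 (SE 0.26) missed the threshold (edgeR adjusted p = 0.077). Aldoa, the ubiquitous aldolase, overlapped at 913 and 757 CPM against 541, 1153, 629 and 662 CPM, and per kilobase of exon Aldoc was 4.69 to 5.57% of the 2 in Elf5-positive and 2.33 to 3.72% in Elf5-negative cells. Aldoc therefore stayed the minor form in all 6 libraries.

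Phosphofructokinase commits sugar to glycolysis, and its liver (Pfkl) and platelet (Pfkp) subunits were far above the muscle subunit (Pfkm) per kilobase of exon. Pfkm was at 23.8 and 13.5 CPM against 32.7, 63.3, 42.6 and 25.1 CPM (log2 fold change -1.14, SE 0.43, edgeR adjusted p = 0.218). The groups did not overlap, but Elf5-negative library 4 was close to Elf5-positive library 1. Pfkl was at 277 and 315 CPM against 168, 273, 140.3 and 247 CPM, and Pfkp at 308 and 343 CPM against 271, 252, 173 and 188 CPM. Both genes lay higher in each Elf5-positive library than in any Elf5-negative one, with log2 fold changes of 0.52 (SE 0.31) and 0.56 (SE 0.26) that did not pass (edgeR adjusted p = 0.486 and 0.346). Per kilobase of exon, Pfkm was 2.67 to 5.16% of the 3 subunits in Elf5-positive and 7.07 to 15.5% in Elf5-negative cells. Summed skeletal muscle markers were highest in Elf5-negative library 1 (281 CPM) and next in library 2 (52.5 CPM), whereas Pfkm was highest in library 2, and their part in the Pfkm values was not tested.

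The bifunctional enzymes Pfkfb3 and Pfkfb4 set the level of fructose 2,6-bisphosphate, the activator of phosphofructokinase. Pfkfb4 was at 14.2 and 5.13 CPM against 25.1, 37.3, 31.1 and 16.1 CPM (log2 fold change -1.50, SE 0.50, edgeR adjusted p = 0.161). The groups did not overlap, with Elf5-negative library 4 just above Elf5-positive library 1. Pfkfb3 was at 55.0 and 54.0 CPM against 69.8, 72.1, 45.4 and 38.5 CPM, where the Elf5-positive values fell inside the Elf5-negative range. Gpi1, which turns glucose 6-phosphate into fructose 6-phosphate, was at 312 and 288 CPM against 274, 480.3, 264 and 272 CPM and also overlapped. Tpi1, the triose phosphate isomerase, was at 879.9 and 931 CPM against 458, 828, 656 and 781 CPM, without overlap (log2 fold change 0.41, SE 0.30, edgeR adjusted p = 0.586).

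Lower glycolysis harvests ATP and NADH on the way to pyruvate. Of its 6 genes 0 passed edgeR's test in either direction, 0 at an unadjusted p below 0.05 and 0 by DESeq2, with fold changes between -0.87 and 0.57 on the log2 scale. Pkm, the pyruvate kinase of most tissues other than liver, was at 2445 and 1742 CPM against 1353, 3251, 1522 and 1512 CPM. Pgk1, phosphoglycerate kinase, was at 1559 and 614 CPM against 709, 1503, 658 and 472 CPM. Eno1, the common enolase, was at 1112 and 374 CPM against 361, 918, 534 and 321 CPM. All 3 overlapped between the sorts and had 1 high library in each sort, Elf5-positive library 1 and Elf5-negative library 2, which share A and T2. Eno2, the neuronal enolase, was at 51.2 and 27.2 CPM against 56.8, 106, 45.7 and 78.5 CPM (log2 fold change -0.87, SE 0.41, edgeR adjusted p = 0.34), with Elf5-positive library 1 above Elf5-negative library 3. Pgam1, phosphoglycerate mutase, was at 323 and 303 CPM against 266, 534, 347 and 293 CPM. Gapdh did not overlap, at 789.7 and 1080 CPM against 411, 741, 607 and 766 CPM (log2 fold change 0.57, SE 0.32, edgeR adjusted p = 0.456).

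Several of these enzymes have processed pseudogenes or retrogenes so similar that counting splits reads between them by model. Of 70 table entries with at least 95% identity to Gapdh over at least 50% of its coding sequence, 68 had counts, and together they took 66.5 to 72.2% of the combined counts in a library. The 3 copies of Eno1 took 64.0 to 68.3%. For Pgk1, its 2 copies (Gm5537 and Pgk1-rs7) took none of the combined counts in Elf5-positive library 1 but 31.8% in Elf5-positive library 2 and 9.70 to 31.2% in the Elf5-negative libraries. Its ratio between Elf5-positive libraries 1 and 2 was 2.54 by its own counts and 1.73 with the copies added. The copy of Higd1a took 21.9 to 25.6% and that of Pgam1 0 to 13.9%. Levels of these 5 genes are therefore less certain than those of members whose copies took few or no counts. For Aldoa the search for copies started from another Ensembl entry of that symbol than the one counted. It therefore does not show whether reads of Aldoa were split. Adding the copies changed no call among the 38.

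**Figure D3:**
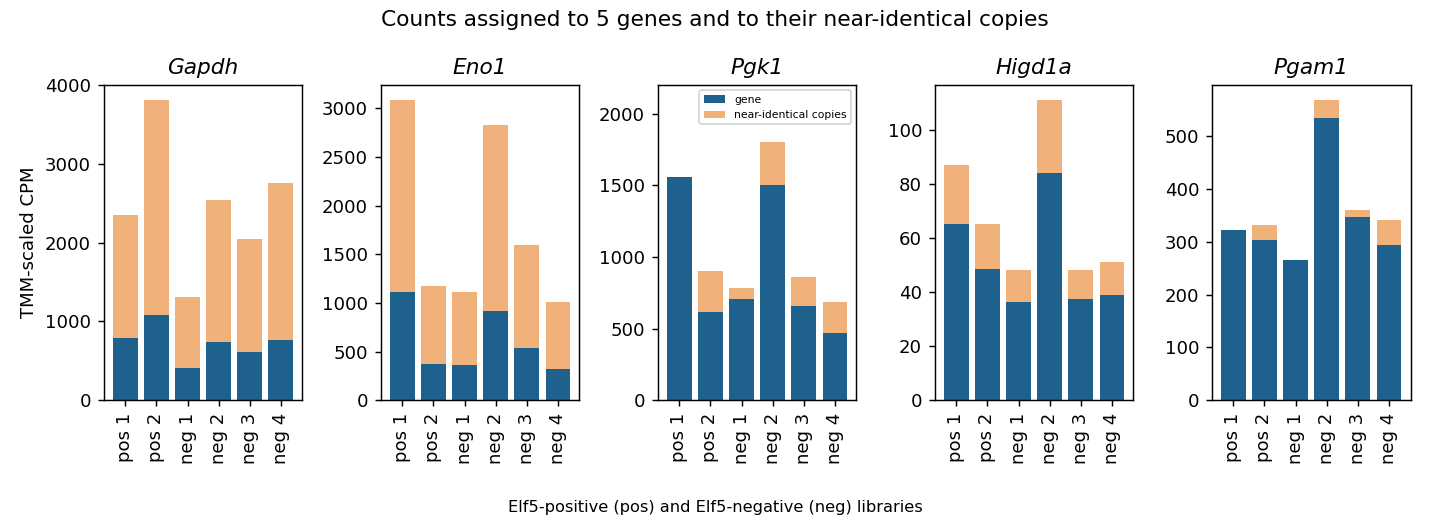
TMM-scaled CPM assigned to 5 genes (blue) and to their near-identical copies (orange) in each library. For Gapdh and Eno1 the copies hold over 60% of the bar in every library, while for Pgk1 their part is 0 in Elf5-positive library 1 and 31.8% in Elf5-positive library 2.

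Pyruvate is reduced to lactate by Ldha, kept from mitochondria when Pdk1 blocks pyruvate dehydrogenase, and lactate is moved by the transporters Slc16a1 (MCT1) and Slc16a3 (MCT4, the HIF-induced exporter). Ldha was at 1127 and 981 CPM against 705, 1292, 803 and 816 CPM and Pdk1 at 30.0 and 26.9 CPM against 22.1, 56.6, 27.9 and 25.8 CPM. For both, the Elf5-positive values lay between Elf5-negative library 2 and at least 1 other Elf5-negative library. Slc16a1 was at 62.8 and 71.4 CPM against 75.1, 86.4, 106 and 97.6 CPM, without overlap, and its log2 fold change of -0.44 (SE 0.23) did not pass (edgeR adjusted p = 0.391). Slc16a3 ranged widely in both sorts, at 129.5 and 39.1 CPM against 137, 280.0, 94.0 and 96.6 CPM (log2 fold change -0.85, SE 0.60, edgeR adjusted p = 0.572). Slc16a3 was 67.2 and 35.3% of the 2 transporters per kilobase of exon in the Elf5-positive and 46.9 to 76.3% in the Elf5-negative libraries, so the sorts were not separable on this share.

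Hif1a was at 71.2 and 88.0 CPM against 123, 147, 161 and 137 CPM, and Epas1 (HIF-2 alpha) at 56.7 and 44.9 CPM against 93.7, 99.0, 70.8 and 58.8 CPM. The sorts did not overlap for either gene, although Epas1 in Elf5-negative library 4 was close to Elf5-positive library 1. The log2 fold changes were -0.84 (SE 0.23, edgeR adjusted p = 0.0924) and -0.67 (SE 0.28, edgeR adjusted p = 0.28), neither of which passed. Egln3, a prolyl hydroxylase that is itself a HIF target, was at 44.6 and 38.2 CPM against 18.9, 27.6, 17.5 and 21.1 CPM. Every Elf5-positive value lay above every Elf5-negative one, and the log2 fold change of 0.96 (SE 0.25) missed the threshold (edgeR adjusted p = 0.0837). Egln1, the main oxygen sensor of most cells, was at 104 and 106 CPM against 99.7, 151, 80.7 and 92.4 CPM and overlapped. Per kilobase of exon, Egln3 was 32.7 to 36.8% of the 2 hydroxylases in Elf5-positive and 19.7 to 23.6% in Elf5-negative cells.

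Of the 7 intracellular targets 0 passed edgeR's test in either direction (1 higher at an unadjusted p below 0.05, 0 by DESeq2), with fold changes between -0.30 and 0.71 on the log2 scale. Ndrg1, a stress and differentiation gene, was the only one of them without overlap, at 1049 and 944 CPM against 520.0, 814, 646 and 455 CPM (log2 fold change 0.71, SE 0.30, edgeR adjusted p = 0.279). The mitophagy receptors Bnip3 and Bnip3l were at 37.6 and 48.4 CPM against 33.2, 89.1, 42.7 and 46.5 CPM, and at 166 and 178 CPM against 107, 168, 187 and 134 CPM. Bnip3 was lifted in Elf5-negative library 2 alone, and Bnip3l was not. Higd1a, a mitochondrial hypoxia protein, was at 65.4 and 48.6 CPM against 36.5, 84.0, 37.7 and 39.0 CPM, and Ankrd37, a small ankyrin protein, at 24.5 and 18.9 CPM against 10.1, 24.3, 13.9 and 12.4 CPM. Kdm3a, a histone H3 lysine 9 demethylase, ran the other way between libraries, at 111 and 226 CPM against 97.9, 98.1, 119 and 187 CPM, with the B T2 library highest in each sort. Mxi1, a Myc antagonist of the Mxd family, was at 49.99 and 48.9 CPM against 40.5, 64.9, 62.0 and 38.4 CPM.

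Carbonic anhydrases 9 and 12 are membrane enzymes that handle the acid glycolysis produces. Car9, among the most HIF-dependent genes known, was at 51.0 and 9.23 CPM against 17.4, 59.4, 13.9 and 13.8 CPM (log2 fold change 0.20, SE 0.79, edgeR adjusted p = 0.942). Its 2 high libraries were again the A T2 library of each sort, and the rest lay between 9.23 and 17.4 CPM. Car12, which answers to steroid hormones in breast as well, was at 17.4 and 32.0 CPM against 13.9, 45.1, 63.3 and 61.7 CPM (log2 fold change -0.89, SE 0.58, edgeR adjusted p = 0.53). Its low libraries were those of number A with the exception of Elf5-negative library 2.

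Ratios of partner genes within a library were tested over the 6 libraries by exact permutation (two-sided, 15 arrangements, smallest possible p 0.0667, so that no ratio could pass 0.05), with adjustment over 12 ratios. For 5 ratios the p was that smallest value (adjusted 0.16) and the sorts did not overlap: Hk2 to Hk1, Slc2a3 to Slc2a1, Pfkm to Pfkl and Pfkfb4 to Pfkfb3 were lower in Elf5-positive cells, with differences of log2 ratios of -1.43, -3.15, -1.67 and -1.62, and Egln3 to Egln1 was higher by 0.95. In each of these 5 the first-named gene by itself did not overlap between the sorts. The ratios use the same counts as the single-gene values, so they are not separate evidence. Aldoc to Aldoa (0.79 higher) and Eno2 to Eno1 (-1.27) did not overlap either, with exact p = 0.133 (adjusted 0.229). Of all tested single genes, 10.9% did not overlap on the higher and 14.8% on the lower side. No such share was taken over other pairs of genes. The other 5 ratios (Pfkp to Pfkl, Slc16a3 to Slc16a1, Epas1 to Hif1a, Bnip3l to Bnip3, Car12 to Car9) overlapped, with differences between -0.79 and 0.45 and exact p from 0.333 to 1.

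**Figure D4:**
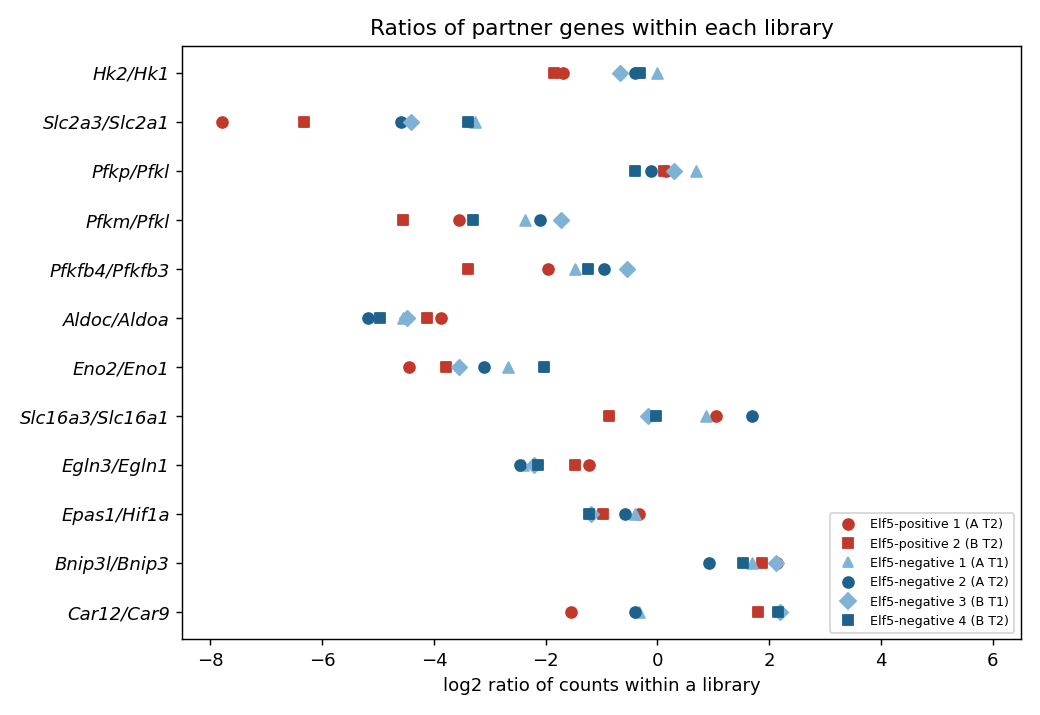
Log2 ratio of counts of 12 pairs of partner genes within each library (red, 2 Elf5-positive libraries; blue, 4 Elf5-negative libraries). The sorts do not overlap for 7 pairs, among them Hk2/Hk1 at -1.77 against -0.34 and Egln3/Egln1 at -1.34 against -2.30 on average. Of all tested single genes, 10.9% do not overlap on the higher and 14.8% on the lower side.

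The second question is how far these genes vary between libraries of the same sort. Elf5-negative library 2 (A T2) had the highest value of the 4 Elf5-negative libraries for 29 of the 38 genes (76.3%), and for 29.4% of the 9990 genes with a mean at or above that of the lowest member (12.2 CPM). The median ratio of highest to lowest Elf5-negative library was 1.89 for the members and 1.59 for those genes, and the median SD of log2 CPM was 0.441 against 0.299. Summed over the glycolytic members, libraries stood at 9055 and 6832 CPM against 4926, 10134, 5647 and 5640 CPM, so Elf5-negative library 2 was the highest of all 6 and exceeded Elf5-positive library 1. The members are not independent of each other, and the contrast between library 2 and the others rests on 1 library and has no test.

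The genes with the largest excess in Elf5-negative library 2 over the mean of the other 3 were Car9 (3.96 times), Slc16a3 (2.57), Pgk1 (2.45), Vegfa (2.38), Eno1 (2.26), Pdk1 (2.24), Higd1a (2.23), Slc2a1 (2.22), Pkm (2.22) and Bnip3 (2.19). They span transport, lower glycolysis, lactate export, mitochondrial targets, angiogenesis and pH control. Adm, Hif1a and Car12 were within 1.05 times or below that mean, at 1.01, 1.05 and 0.97, and Slc16a1 and Kdm3a lay below it at 0.93 and 0.73. Slc2a3 and Hk2, which differed between the sorts, were only 1.18 and 1.20 times that mean. In library 2 the 14 fibroblast markers summed to 17400 CPM, the lowest of the Elf5-negative libraries, epithelial markers to 2773 CPM, leukocyte markers to 137 CPM and skeletal muscle markers to 52.5 CPM, each inside the range of the other 3 Elf5-negative libraries except the fibroblast sum. Their part in this spread was not tested.

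The same title number and code marked the high library in the Elf5-positive sort for part of the list. Between the T2 libraries, A exceeded B for 33 of 38 members among Elf5-negative cells (86.8%, beside 55.9% of the 9990 genes) and for 23 of 38 among Elf5-positive cells (60.5%, beside 52.1%), and 23 did so in both (60.5%, beside 45.2%). The median log2 ratio was 0.76 among Elf5-negative cells, beside 0.08 for the 9990 genes, but 0.13 among Elf5-positive cells, beside 0.04. Car9 had the largest of these ratios in both sorts, 2.47 on the log2 scale in Elf5-positive and 2.11 in Elf5-negative cells. Positive ratios in both sorts were also seen for Slc16a3 (1.73 and 1.54), Eno1 (1.57 and 1.52), Pfkfb4 (1.47 and 1.21), Pgk1 (1.34 and 1.67), Vegfa (0.91 and 1.20), Pfkm (0.82 and 1.33) and Slc2a1 (0.76 and 1.11). Kdm3a ran the other way in both sorts (-1.03 and -0.93), as did Car12 (-0.88 and -0.45). All these ratios use each gene's own counts. With the near-identical copies added, A over B without logarithm went from 2.54 to 1.73 (Elf5-positive) and 3.18 to 2.63 (Elf5-negative) for Pgk1. For Pgam1 among Elf5-positive cells it went from 1.06 to 0.976, so A no longer exceeded B there.

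Across the 38 members the 2 log2 ratios had a Pearson r of 0.86 and a Spearman rho of 0.83, and across the 9990 genes 0.79 and 0.81, so the agreement is shared by genes at large. The points of this correlation share the same 4 libraries. Between the T1 libraries, A over B had a median log2 ratio of -0.20 for the members and -0.10 for all 9990, so the median went the other way at T1. Car9, Pgk1 and Slc16a3, whose promoters are printed above, had T1 ratios of 0.33, 0.11 and 0.54 on the log2 scale. What A, B, T1 and T2 stand for is not given, so title number, animal, tumour and handling cannot be told apart.

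**Figure D5:**
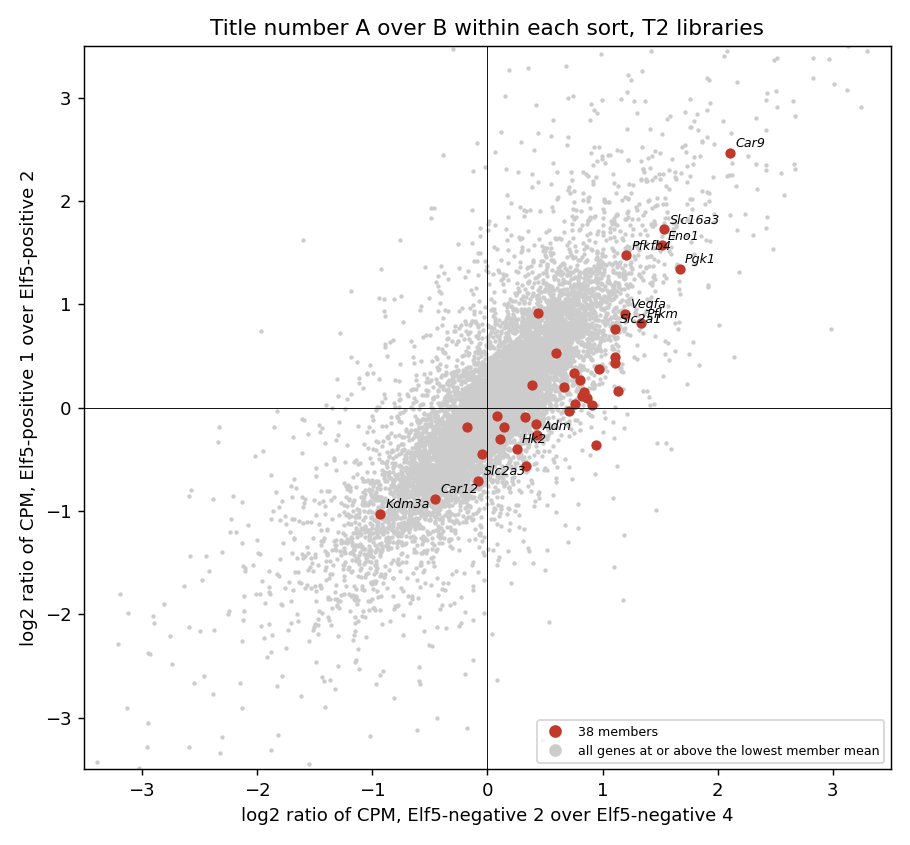
Log2 ratio of the A to the B library at code T2 among Elf5-negative cells (x axis) and among Elf5-positive cells (y axis, a few grey points lie outside the axes), for the 38 genes (red) and the other genes at or above 12.2 CPM on average (grey). Most members lie right of 0, with Car9 at 2.11 and 2.47 farthest from the origin and Kdm3a at -0.93 and -1.03 at the opposite end.

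For 19 of the 38 members the SD of log2(CPM + 1) among Elf5-negative libraries was larger than the fold change between the sorts (beside 45.1% of the 9990 genes). Within the pair of T2 libraries that shared number A, the log2 difference of Elf5-positive over Elf5-negative was -3.43 for Slc2a3, -1.62 for Hk2 and -1.62 for Adm, and within that of number B it was -2.80, -0.97 and -0.92. Aldoc (0.97 and 1.03) and Egln3 (0.69 and 0.86) were higher within each pair, and Hif1a lower (-1.05 and -0.64). Bnip3 differed most between the pairs, at -1.24 and 0.06, followed by Pdk1 at -0.91 and 0.06, and both were highest in Elf5-negative library 2. Each pair has 1 library per sort and no test.

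Other genes of the same pathways were read from companion lists. Of 16 other glycolytic genes tested (20 in the list) 0 passed edgeR's test in either direction, with a median log2 fold change of -0.24. By edgeR 3 were lower at an unadjusted p below 0.05, beside 11.7% of all tested genes. DESeq2 called 2 lower, beside 8.54% of all genes. Over all tested genes 0.585% rose by edgeR. Of 19 genes of pyruvate, lactate and mitochondrial carriers Ldhd, a mitochondrial D-lactate dehydrogenase, rose, from 6.92, 3.75, 6.37 and 7.20 CPM in the Elf5-negative to 19.9 and 24.3 CPM in the Elf5-positive libraries (log2 fold change 1.87, SE 0.34, edgeR adjusted p = 0.0251). With epithelial scaling its log2 fold change was 0.46 and the call was lost (edgeR adjusted p = 0.44). Of 15 genes of the pentose phosphate pathway and glycogen metabolism Taldo1, the transaldolase, rose, from 74.8, 83.6, 95.7 and 87.5 CPM to 153 and 191 CPM (log2 fold change 1.01, SE 0.21, edgeR adjusted p = 0.0398), although it lay 0.35 lower (-0.35) with epithelial scaling. Neither gene overlapped between the sorts. Without a library, Ldhd failed without Elf5-negative libraries 1 or 3 or Elf5-positive library 2 (edgeR adjusted p 0.072 to 0.105), and Taldo1 failed whichever library was left out (0.0621 to 0.188).

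Of 40 other genes known as HIF targets 3 fell and 0 rose by edgeR (12 lower and 2 higher at an unadjusted p below 0.05, 9 lower by DESeq2), with a median log2 fold change of -0.30. Over all tested genes 3.79% fell by edgeR, 11.7% were lower and 5.20% higher at an unadjusted p below 0.05, and 8.54% fell by DESeq2. The collagen and elastin crosslinking enzyme Lox was at 27.5 and 7.92 CPM against 355, 463, 694 and 219 CPM (log2 fold change -4.61, SE 0.73, edgeR adjusted p = 0.0165), and its relative Loxl2 at 52.0 and 15.3 CPM against 294, 449, 507 and 190.2 CPM (-3.42, SE 0.65, edgeR adjusted p = 0.0291). Lox and Loxl2 are also matrix genes of fibroblasts. Of the 14 fibroblast markers 12 fell, and the median log2 fold change of the 14 was -4.72. The part of cell makeup in the fall of Lox and Loxl2 was not tested. Selenbp1, a selenium-binding methanethiol oxidase, was at 2.18 and 2.42 CPM against 12.9, 8.67, 14.3 and 7.40 CPM (-2.24, SE 0.43, edgeR adjusted p = 0.0298). The call was lost without Elf5-positive library 2 or Elf5-negative library 1 for Lox (edgeR adjusted p 0.0511 and 0.0516), without 4 of the 6 libraries for Loxl2 (0.0526 to 0.0774) and without 5 of the 6 for Selenbp1 (0.0504 to 0.105). Of 14 genes of the HIF machinery 0 passed edgeR's test in either direction, 0 at an unadjusted p below 0.05 and 0 by DESeq2, and of 13 genes of the Myc, Mxd and Mondo families 0 passed (2 higher at an unadjusted p below 0.05, 0 by DESeq2).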

How the data were processed

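RNA-seq of 2 Elf5-positive and 4 Elf5-negative libraries was analysed. The authors deposited estimated counts (expected counts) per gene as whole numbers, quantified with Salmon against GRCm38.p5 according to the submitters' processing notes. Which Salmon version and annotation were used, and how transcripts became genes, is not given in the sources used here. Salmon shares reads between near-identical genes by model.

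Counts were filtered with filterByExpr by group and scaled with TMM, and the sorts were compared over 6 libraries with edgeR 4.0.16 (quasi-likelihood test, no block, Benjamini-Hochberg adjusted p below 0.05) in R 4.3.3, with DESeq2 1.42.0 as an alternative. SE is the log2 fold change over the root of F. Exon lengths and coordinates came from GENCODE on GRCm38 and copies from BLAST+ 2.17.0. Ratios used a pseudocount of 0.5 counts. Totals of 9106660 to 53694884 counts limit precision, most in Elf5-negative library 4.

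All 38 members were named. From other lists, genes that passed were named (at most 4 of smallest p), and from marker lists sums and at most 2 genes. Members and lists were chosen with earlier results of these data known. Adding near-identical copies was chosen after seeing the data.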

Additional observations from a re-analysis of the deposited data

Results flagged for a closer look

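Among 55 sets of 4 Elf5-negative values that were checked for a library far from the other 3 (gap to the nearest library divided by the range, against Dixon's critical value for 4 samples), 6 stood out, and in each the far library was Elf5-negative library 2 (number A, T2) and the far value was high. About 1 in 20 such sets is picked out by chance, and the sets are not independent, since members share libraries. Gpi1 was at 480.3 CPM against 264 to 274 CPM in the other 3 (gap over range 0.955). Pkm was at 3251 CPM against 1353 to 1522 CPM (0.911). Pdk1 was at 56.6 CPM against 22.1 to 27.9 CPM (0.831). Higd1a was at 84.0 CPM against 36.5 to 39.0 CPM (0.948). Vegfa was at 901 CPM against 349 to 395 CPM (0.916). Car9 was at 59.4 CPM against 13.8 to 17.4 CPM (0.921).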

How the results depend on the processing

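Of the 3 members lower and 0 higher, DESeq2 gave 5 and 2, and epithelial scaling 26 lower. The T2 libraries without a block gave 0 by edgeR. At an unadjusted p below 0.05, 6 members were lower there, beside 1463 of 19395 tested genes. The Elf5-negative libraries of number B alone also gave 0. At an unadjusted p below 0.05, 5 members were lower with them, beside 1657 of 20159 tested genes. Leaving out a library gave 0 to 2 lower. Library totals as scaling lost Hk2 (edgeR adjusted p 0.0556). With the title number as a replicate block the count stayed at 3 lower, while all-gene calls went from 783 lower and 121 higher to 1011 and 252, and in the T2 libraries the block gave 9 lower and 1 higher. The labels do not say that the number pairs libraries, so this block is only a check. Deviations of T2 libraries of one number from the mean of their sort correlated at 0.60 and 0.70 over 15143 genes. Both values use the same difference between the 2 Elf5-positive libraries, so they are not independent. All-gene calls (lower, higher) were 1763 and 436 by DESeq2, 9839 and 16 with epithelial scaling, 1331 and 273 without a count filter, 1368 and 549 in T2 libraries with the block, 0 and 0 without it, 75 and 0 with the number B Elf5-negative libraries, and 197 to 811 and 25 to 133 with a library left out. Signs changed as follows, on the log2 scale, all for genes that did not pass except Taldo1. Epithelial scaling gave Slc2a1 -1.18, Hk1 -1.12, Pfkl -0.89, Pfkp -0.88, Aldoa -1.24, Aldoc -0.40, Tpi1 -0.96, Gapdh -0.78, Pgk1 -1.11, Eno1 -0.99, Pkm -1.29, Ldha -1.18, Egln3 -0.46, Bnip3l -1.13, Higd1a -1.21, Ndrg1 -0.67, Ankrd37 -0.88, Kdm3a -0.91, Vegfa -1.43, Car9 -1.34 and Taldo1 -0.35. T2 libraries without a block gave Slc2a1 -0.078, Aldoa -0.11, Pkm -0.18, Higd1a -0.10, Vegfa -0.31 and Car9 -0.29, and with the replicate block Slc2a1 -0.023, Pfkfb3 0.046, Aldoa -0.066, Pkm -0.097, Higd1a -0.023, Vegfa -0.26 and Car9 -0.38. The number B Elf5-negative libraries gave Gpi1 0.18, Pfkfb3 0.39, Pdk1 0.098 and Egln1 0.30. The title number block over all libraries gave Pfkfb3 0.012, Egln1 0.019 and Car9 -0.052, library totals gave Egln1 0.014, and no count filter gave Vegfa -0.0070. Leaving out a library gave ranges across 0 for Pfkfb3 (-0.18 to 0.084), Vegfa (-0.49 to 0.46), Bnip3 (-0.49 to 0.074), Egln1 (-0.13 to 0.20), Gpi1 (-0.19 to 0.15), Mxi1 (-0.16 to 0.071), Pdk1 (-0.37 to 0.17), Pgam1 (-0.32 to 0.048), Car9 (-1.51 to 1.00), Eno1 (-0.51 to 1.06), Higd1a (-0.021 to 0.59), Pgk1 (-0.44 to 0.90), Pkm (-0.13 to 0.51), Slc2a1 (-0.20 to 0.62), Hk1 (-0.082 to 0.48) and Kdm3a (-0.18 to 0.85), and for the ratios Pfkp/Pfkl (-0.16 to 0.20), Car12/Car9 (-2.46 to 0.89), Epas1/Hif1a (-0.13 to 0.52) and Slc16a3/Slc16a1 (-1.46 to 0.45). The causes were not tested. A pseudocount of 5 counts, DESeq2 size factors and the added copies changed no sign and no call.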
